A study of Homo sapiens with 12 samples.

Results

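Genes whose response to cis-chlordane differed between GFP-positive and GFP-negative cells of the same cultures were identified from all 12 libraries of the series, and 16226 of the 28278 gene symbols in the count table had enough counts to be tested. Members were chosen by a test of the difference itself, treated minus control, GFP-positive minus GFP-negative, with each culture as its own block. All cultures came from human embryonic stem cells of the established line WA09-Islet1-GFP, labelled wild-type, in which GFP is driven by the promoter of the transcription factor Islet1. They were differentiated to motor neurons and given 10 µM cis-chlordane or the same volume of DMSO for 16 hours, before dissociation with trypsin and FACS on GFP. This gave 3 libraries each of control GFP-positive, treated GFP-positive, control GFP-negative and treated GFP-negative cells, from 6 cultures of a single line. The labels give the dose quoted here, whereas the methods of the study give a higher one for the sorted cells. Titles of treated libraries also open with the word untreated, so that treatment was read from the treatment entry of the labels. GFP-negative cells are defined by what they lack, and no label says which cell types they were.

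Islet1 is a LIM homeodomain factor that is switched on as spinal motor neurons leave the cell cycle. Its GFP reporter is therefore used to enrich young motor neurons from the other cells of a culture. cis-Chlordane is a cyclodiene organochlorine insecticide, best known as a blocker of GABA-gated chloride channels. Stressed cells slow translation and raise ATF4 targets through the integrated stress response, while motor neurons of the developing cord carry neuropilins, Eph receptors, UNC5 receptors and cadherins by which their axons and cell bodies find their place.

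Depth was between 23414935 and 38347050 assigned counts per library (median 31553596). Values below are CPM, counts relative to the TMM-scaled library size, listed for libraries 1, 2 and 3 of a group, and a response is the log2 fold change of treated over control cells in a fraction. ISL1, which encodes Islet1, stood at 66.1, 62.4 and 68.6 CPM in control and 8.01, 15.3 and 12.6 CPM in treated GFP-positive cells, against 2.50, 2.41 and 2.80 CPM in control and 0.389, 0.691 and 0.566 CPM in treated GFP-negative cells. Every GFP-positive library was above every GFP-negative library, and the response of ISL1 did not pass the test of a difference between fractions (-0.24, 95% interval -0.81 to 0.33). ISL1 had responses of -2.45 ± 0.22 in GFP-positive and -2.20 ± 0.28 in GFP-negative cells, and its promoter drives the GFP used for sorting. Whether the same kinds of cells entered each fraction in control and treated cultures was not tested, which limits every difference below. The summed level of 8 motor neuron markers was 2268 to 2847 CPM in control and 761.6 to 1130 CPM in treated GFP-positive cells, and 386 to 425 and 145 to 184 CPM in the GFP-negative ones. The 10 pan-neuronal markers summed to 27415 to 28975 CPM in control and 14618 to 19460 CPM in treated GFP-positive cells. In GFP-negative cells they summed to 10433 to 11070 and 6330.5 to 6625.5 CPM, so that neuronal transcripts were not confined to the GFP-positive fraction. The 10 neural progenitor markers summed to 3219 to 3554 and 2520 to 3341 CPM in GFP-positive cells and to 6165 to 8202 and 7319 to 8380 CPM in GFP-negative cells. VIM and NES, which encode intermediate filaments, carried this sum and moved apart in GFP-negative cells, VIM from 3677 to 4141 CPM in control to 6006 to 7118 CPM in treated libraries, and NES from 1999.8 to 3464 CPM down to 983 to 1351 CPM. Of the 9 tested progenitor markers, 6 fell and 1 rose in GFP-negative cells, where 18.3% of all genes fell and 18.9% rose. In GFP-positive cells 5 fell and 2 rose, beside 23.3% and 19.9% of all genes. NKX6-1, of the same list, was higher in GFP-positive cells (300 to 348 against 148 to 184 CPM in control). Control GFP-negative library 3 stood apart, with 2040 CPM of HBA2 and 498 CPM of HBA1, near-identical globin genes that can share reads, and 28.4 CPM of the leukocyte gene PTPRC. HBA2 was at 73.7 and 77.3 CPM in treated GFP-negative libraries 1 and 3 and at most 7.96 CPM in the other 9 libraries. Values that rest on that library are given below with and without it.

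Both fractions responded strongly and in large part alike. In GFP-positive cells 3236 genes rose (19.9% of those tested) and 3780 fell (23.3%), and in GFP-negative cells 3065 rose (18.9%) and 2967 fell (18.3%). These calls, of 43.2% and 37.2% of genes in all, are those with an adjusted p under 0.05 (edgeR, quasi-likelihood). The difference between the responses, GFP-positive minus GFP-negative, passed the same threshold in 1264 genes (7.79%). It was positive in 519 of them (3.2%) and negative in 745 (4.59%). A difference of at least 2-fold was found in 618 genes (3.81%), 330 of them positive (2.03%) and 288 negative (1.77%). The within-culture differences between fractions of treated and control cultures did not overlap in 4688 genes (28.9%). In bulk libraries, fewer cells of a type and less RNA per cell cannot be told apart.

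The number of genes rested on the pairing of fractions within cultures and on single cultures. Without the culture block 355 genes were called, and 400, 443 and 445 without treated culture 1, control culture 2 and treated culture 3. The culture with the globin counts, control culture 3, had less weight, since 932 genes were called without it. The share of positive differences was 41.1% here, but 51.9% with RLE scaling, 53.7% after removal of trends with GC content, 67.6% with genes of at least 10 counts in every library and 77.9% with library size alone. It was 54.2%, 61.8% and 60.5% without control culture 2, treated culture 1 and treated culture 2. All 355 genes called without the block were among the 1264. In each of 14 alternative fits that tested them, 222 of the 1264 genes were called, 109 positive and 113 negative. Genes described below with the test of their difference belong to these 222 unless it is said otherwise, and those named only to complete the count of a list may not.

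By the responses within each fraction, 51 of the 1264 genes moved in opposite directions, 491 passed the test in GFP-positive cells alone and 329 in GFP-negative cells alone. A further 323 changed in the same direction by unequal amounts, and 70 passed in neither fraction. Of the 51 genes with opposite responses, 32 fell in GFP-positive and rose in GFP-negative cells, and 19 did the reverse. In the 14 alternatives, 32 of the 51 were always called. These classes describe which tests passed. A response that passed in 1 fraction and not in the other is called one-sided here only beside a difference that itself passed.

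**Figure D1:**
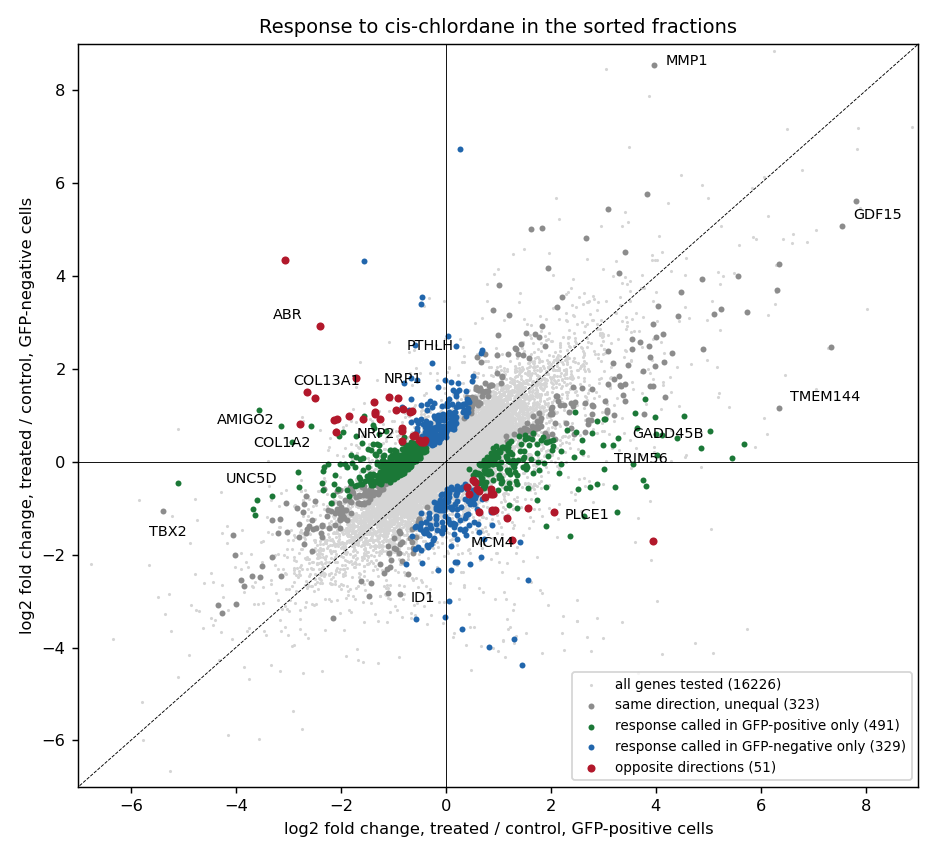
Log2 fold change of treated over control cells in GFP-positive (x axis) and GFP-negative cells (y axis), 1 point per gene. Grey dots are all 16226 genes tested, colours mark the called genes by class (the 70 called in neither fraction are left grey), and the dashed line marks equal responses. The 51 genes with opposite responses lie in the upper left and lower right quadrants.

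The 3 smallest p-values of the comparison were those of TBX2, NRP2 and COL1A2. TBX2 (chr17:61399843-61409466, hg38), a T-box repressor, stood at 51.4, 57.5 and 51.7 CPM in control and 0.930, 1.29 and 1.59 CPM in treated GFP-positive cells, and at 5.26, 4.17 and 4.92 CPM in control and 2.29, 2.80 and 1.81 CPM in treated GFP-negative cells. It was highest in control GFP-positive cells, and after treatment every GFP-positive library was below every GFP-negative one. The response was -5.39 ± 0.24 (SE) in GFP-positive and -1.05 ± 0.22 in GFP-negative cells, a difference of -4.33 ± 0.30 (adjusted p = 3.89e-06). TBX2 therefore fell in both fractions, but unequally. Its relative TBX3 was at 6.41, 8.60 and 8.54 CPM in control GFP-positive cells and at most 0.708 CPM in each other library. The difference for TBX3 was -4.56 ± 0.76 (adjusted p = 0.00291), and without treated culture 3 it was -3.61 with an adjusted p of 0.0788.

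NRP2 (chr2:205681990-205798133), a co-receptor of class 3 semaphorins, stood at 403, 395 and 405 CPM in control and 112, 131 and 93.9 CPM in treated GFP-positive cells. In GFP-negative cells it stood at 98.6, 127 and 112 CPM in control and 194, 286 and 190 CPM in treated libraries. Treatment separated the libraries of each fraction without overlap, and the fraction with the higher level changed from GFP-positive to GFP-negative. NRP2 fell by 1.84 ± 0.18 on the log2 scale in GFP-positive cells and rose by 0.99 ± 0.18 in GFP-negative cells, a difference of -2.82 ± 0.18 (adjusted p = 3.89e-06).

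COL1A2 (chr7:94394895-94431227), the alpha 2 chain of type I collagen, stood at 166, 191 and 199 CPM in control and 47.1, 50.9 and 32.5 CPM in treated GFP-positive cells. Control GFP-negative cells had 190, 213 and 175 CPM and treated ones 299, 330 and 271 CPM. Control fractions thus overlapped in level, and treated fractions were apart in every library. The responses were -2.09 ± 0.17 and 0.64 ± 0.17, a difference of -2.75 ± 0.19 (adjusted p = 3.89e-06). Its partner chain COL1A1 fell in both fractions, by 1.98 ± 0.26 and 1.09 ± 0.25, and its difference of -0.84 ± 0.20 (adjusted p = 0.0197) was not among the 222. Of the 10 fibroblast and mesenchyme markers, LUM, DCN, PRRX1, TWIST1 and POSTN were at most 1.35 CPM and COL3A1 at most 3.67 CPM in every library, while PDGFRB reached 31.3 CPM, THY1 92.1 CPM and COL1A1 637 CPM. The summed level of the 10 was 349 to 394 CPM in control and 76.3 to 117 CPM in treated GFP-positive cells, and 829 to 947 and 491 to 787 CPM in GFP-negative cells. The 10 include COL1A2 itself, so that the sum is no separate measure, and its part in the COL1A2 result was not tested.

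**Figure D2:**
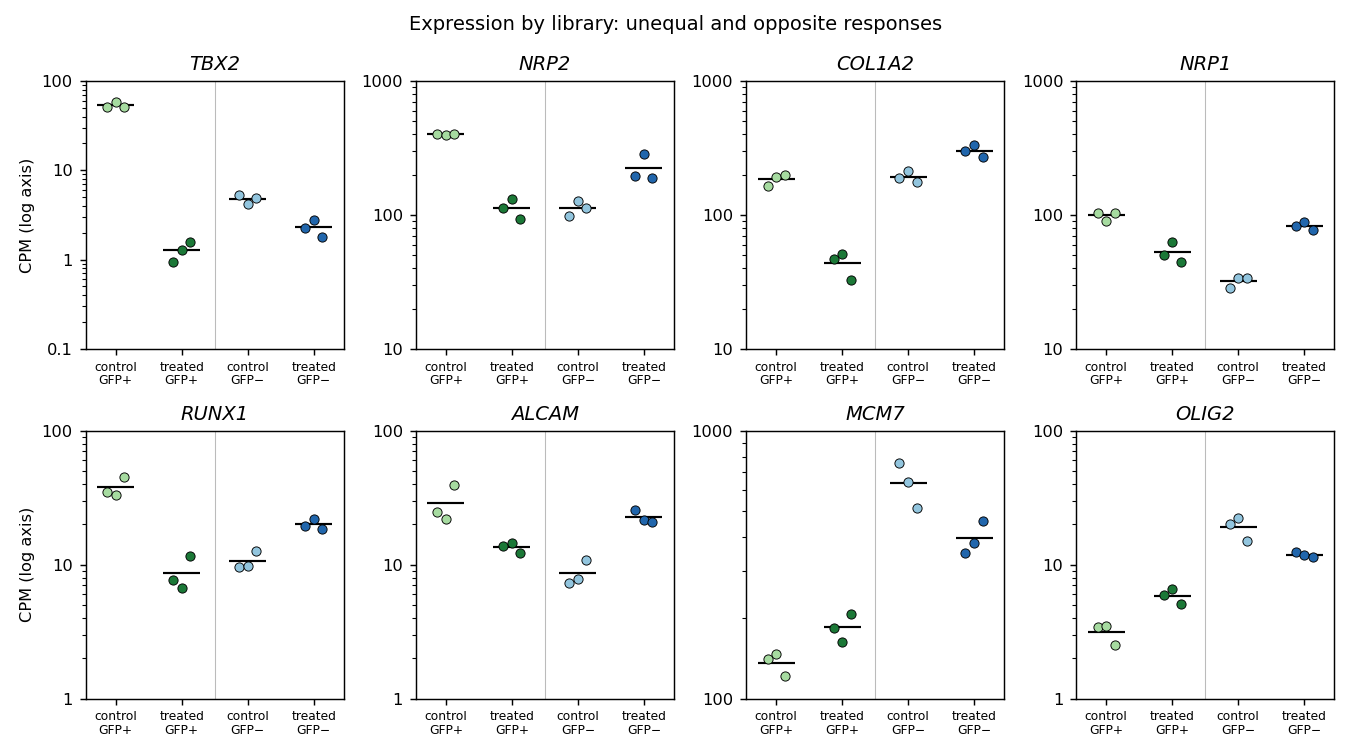
CPM (log axis) of 8 genes in the 12 libraries, in control and treated GFP-positive (green) and GFP-negative cells (blue), with 1 point per library and a bar at the mean of 3. NRP2, COL1A2, NRP1, RUNX1 and ALCAM fell in GFP-positive and rose in GFP-negative cells, MCM7 and OLIG2 did the reverse, and TBX2 fell in both.

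Among the 32 genes that fell in GFP-positive and rose in GFP-negative cells were further receptors and adhesion molecules. NRP1, the other neuropilin, stood at 104, 90.3 and 104 CPM in control and 50.5, 62.8 and 44.3 CPM in treated GFP-positive cells, and at 28.3, 33.9 and 33.9 CPM in control and 83.4, 89.3 and 76.8 CPM in treated GFP-negative cells. As with NRP2, the order of the fractions was exchanged, and the difference was -2.31 ± 0.18 (adjusted p = 1.08e-05). ALCAM, an immunoglobulin-family adhesion molecule of motor axons, went from 24.9, 21.8 and 39.4 to 13.8, 14.4 and 12.3 CPM in GFP-positive cells, and from 7.26, 7.75 and 10.9 to 25.6, 21.6 and 20.9 CPM in GFP-negative cells. The libraries did not overlap between treatments in either fraction (difference -2.45 ± 0.20, adjusted p = 1.15e-05). ITGA9, an integrin subunit, had responses of -0.64 ± 0.20 and 1.09 ± 0.20, a difference of -1.69 ± 0.23 (adjusted p = 0.000853). AMIGO2, a leucine-rich repeat adhesion molecule, and COL13A1, a transmembrane collagen of the neuromuscular junction, were low throughout, at most 5.38 and 5.01 CPM. AMIGO2 had responses of -2.78 ± 0.32 and 0.81 ± 0.29 (difference -3.57 ± 0.37, adjusted p = 8.91e-05). Those of COL13A1 were -2.50 ± 0.36 and 1.37 ± 0.33 (difference -3.89 ± 0.44, adjusted p = 0.000207).

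Regulators and channels had the same orientation. RUNX1, a Runt-domain factor of some motor and sensory neurons, stood at 35.1, 33.2 and 44.9 CPM in control and 7.74, 6.64 and 11.6 CPM in treated GFP-positive cells, and at 9.53, 9.81 and 12.7 CPM in control and 19.6, 21.8 and 18.6 CPM in treated GFP-negative cells. Again the fraction with more transcript was exchanged, with a difference of -3.06 ± 0.25 (adjusted p = 1.15e-05). SHC1, an adaptor of receptor tyrosine kinases, had responses of -1.25 ± 0.15 and 0.92 ± 0.14 (difference -2.17 ± 0.17, adjusted p = 1.08e-05). PIEZO1, a mechanically gated channel, had -0.68 ± 0.25 and 1.08 ± 0.24 (difference -1.78 ± 0.24, adjusted p = 0.000811). MCTP1, a C2-domain membrane protein, had -2.07 ± 0.36 and 0.93 ± 0.34 (difference -3.08 ± 0.44, adjusted p = 0.00117). RUNX1, SHC1 and PIEZO1 were chosen after their values were seen.

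The largest negative differences with opposite responses came with libraries that differed widely within a group. ABR had 8.58, 6.95 and 0.80 CPM in control and 1.56, 0.773 and 0.768 CPM in treated GFP-positive cells, and 0.657, 0.852 and 0.919 CPM in control and 7.0, 6.40 and 4.99 CPM in treated GFP-negative cells. Control GFP-positive library 3 lay with the treated ones, and the difference was -5.01 ± 0.72 (adjusted p = 0.00117). FLOT1, a membrane scaffold protein, was at 16.1 CPM in control GFP-positive library 3 and 22.8 CPM in treated GFP-negative library 3, and at most 1.51 CPM in the other 10. Its difference of -4.96 ± 1.37 (adjusted p = 0.0418) was -3.20 (adjusted p = 0.0843) without control culture 3 and -3.11 (adjusted p = 0.177) without treated culture 3. It also missed the threshold without control culture 2 (adjusted p = 0.0559) or treated culture 1 (adjusted p = 0.109).

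The reverse orientation, a rise in GFP-positive and a fall in GFP-negative cells, was found in 19 genes. MCM7 (chr7:100092233-100101940), a subunit of the replicative helicase, stood at 141, 146 and 121 CPM in control and 184, 163 and 207 CPM in treated GFP-positive cells, and at 759, 642 and 516 CPM in control and 349, 382 and 461 CPM in treated GFP-negative cells. Treated libraries were all above the controls in GFP-positive and all below them in GFP-negative cells, which kept the higher level (difference 1.11 ± 0.17, adjusted p = 0.0019). POLE2, a subunit of DNA polymerase epsilon, had 1.27, 1.13 and 0.672 CPM in control and 1.68, 2.15 and 1.85 CPM in treated GFP-positive cells, against 6.70, 5.96 and 5.68 CPM in control and 3.07, 3.09 and 2.69 CPM in treated GFP-negative cells. Its fractions also came closer without meeting (difference 1.96 ± 0.37, adjusted p = 0.00581). CDKN2C, an inhibitor of CDK4 and CDK6, had responses of 0.88 ± 0.27 and -1.04 ± 0.26 (difference 1.94 ± 0.33, adjusted p = 0.00304). PRPS2, which makes the phosphoribosyl donor for nucleotides, had 0.63 ± 0.19 and -1.09 ± 0.18 (difference 1.74 ± 0.23, adjusted p = 0.000675). MCM7, CDKN2C and PRPS2 were chosen after their values were seen.

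OLIG2, the bHLH factor of motor neuron progenitors, stood at 3.43, 3.48 and 2.53 CPM in control and 5.94, 6.59 and 5.11 CPM in treated GFP-positive cells, and at 20.1, 22.1 and 15.1 CPM in control and 12.4, 11.8 and 11.3 CPM in treated GFP-negative cells. The 4 groups did not overlap (difference 1.58 ± 0.23, adjusted p = 0.00112). PLCE1, a phospholipase C, had the largest positive difference by the naming rule, 3.15 ± 0.39 (adjusted p = 0.000464), with at most 0.820 CPM in control and at least 2.36 CPM in treated GFP-positive cells and a fall from 4.14, 5.17 and 4.80 to 1.94, 3.05 and 1.70 CPM in GFP-negative cells. TMEM132C, a transmembrane protein, followed at 2.67 ± 0.41 (adjusted p = 0.00178). CCDC81 (2.40 ± 0.51, adjusted p = 0.0129) and ADAMTS16 (1.99 ± 0.48, adjusted p = 0.0234), a secreted metalloprotease, were less secure. CCDC81 missed the threshold without treated culture 1 (2.29, adjusted p = 0.0607) or 3 (2.33, adjusted p = 0.0619). ADAMTS16 missed it without control culture 2 (1.99, adjusted p = 0.0913), treated culture 1 (1.93, adjusted p = 0.113) or treated culture 3 (1.5, adjusted p = 0.13).

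Across 40 genes of DNA replication and mitosis, 19 had a difference that passed the test and all 19 were positive. Over all genes 3.2% were positive and 4.59% negative. In GFP-negative cells 39 of the 40 fell and 0 rose, while in GFP-positive cells 23 fell and 2 rose. Over all genes 18.3% fell and 18.9% rose in GFP-negative cells, and 23.3% fell and 19.9% rose in GFP-positive cells. Opposite responses were found in 2 of the 40, MCM7 and CCNE2. The median difference of the list was 0.709, beside -0.0689 over all genes tested, and 0.969 with library size alone, where the median over all genes was 0.189. No negative difference had an unadjusted p under 0.05 in edgeR, where 27 positive ones did, and DESeq2 called 23 positive and 0 negative. Negative calls were also 0 in each of the other alternatives, but over all 14 the number of positive ones ran from 6 to 27. It was 8 without the culture block, 8 without control culture 2, 11 without treated culture 1 and 6 without treated culture 3.

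MCM4, another helicase subunit, stood at 33.9, 35.5 and 39.1 CPM in control and 41.3, 36.9 and 52.7 CPM in treated GFP-positive cells, and at 128, 132 and 128 CPM in control and 42.7, 53.1 and 46.4 CPM in treated GFP-negative cells. The treated fractions overlapped in level where the control fractions were far apart (difference 1.71 ± 0.20, adjusted p = 0.000286). CCNE2, the cyclin of the G1 to S transition, had responses of 1.25 ± 0.47 and -1.67 ± 0.42 (difference 2.77 ± 0.55, adjusted p = 0.00873), and without treated culture 3 its difference was 2.17 with an adjusted p of 0.0568. The proliferation marker MKI67 fell in both fractions, from 17.7, 13 and 26.4 to 8.76, 8.71 and 7.63 CPM and from 142, 170 and 195 to 26.8, 47.9 and 21.5 CPM. Its fall was larger in GFP-negative cells (difference 1.34 ± 0.27, adjusted p = 0.00945). MKI67 was chosen after its values were seen and was not among the 222.

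**Figure D3:**
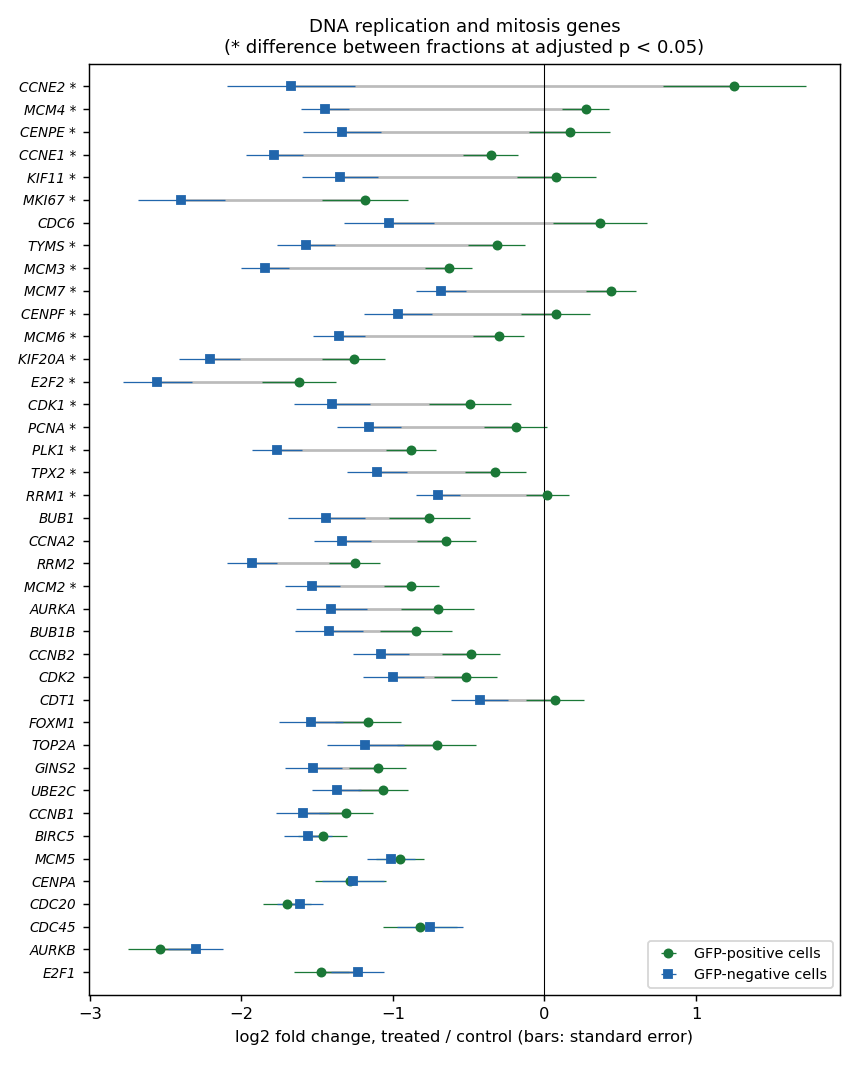
Log2 fold change of treated over control cells, with the standard error, for 40 genes of DNA replication and mitosis in GFP-positive (circles) and GFP-negative cells (squares), in order of the difference. Stars mark the 19 genes whose difference passed the test, and in each of these the GFP-positive value lies to the right.

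Promoters of 3 helicase and polymerase genes with positive differences are shown because genes of this list often carry E2F sites. RefSeq promoters (GRCh38.p14, 250 bases before to 50 after the start) were searched on both strands for TTTCCCGC, TTTCGCGC, TTTGCCGC and TTTGGCGC, which are forms of the E2F site and can overlap each other. A match was found in 8 of 16 promoters of the called genes in the table (50%), in 5 of 15 of those not called (33.3%), in 5.1% of the 12219 promoters of tested genes and in 3.33% of all 27305. Capitals mark the matches in the promoters of MCM7 (chr7:100101348-100101647, minus strand), MCM6 (chr2:135876394-135876693, minus strand) and POLE2 (chr14:49688165-49688464, minus strand).
MCM7: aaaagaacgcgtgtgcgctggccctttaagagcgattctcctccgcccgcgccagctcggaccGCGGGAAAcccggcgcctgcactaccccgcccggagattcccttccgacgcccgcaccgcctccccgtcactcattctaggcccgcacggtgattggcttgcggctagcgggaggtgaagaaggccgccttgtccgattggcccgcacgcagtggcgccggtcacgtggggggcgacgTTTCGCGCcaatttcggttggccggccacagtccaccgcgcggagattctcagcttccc
MCM6: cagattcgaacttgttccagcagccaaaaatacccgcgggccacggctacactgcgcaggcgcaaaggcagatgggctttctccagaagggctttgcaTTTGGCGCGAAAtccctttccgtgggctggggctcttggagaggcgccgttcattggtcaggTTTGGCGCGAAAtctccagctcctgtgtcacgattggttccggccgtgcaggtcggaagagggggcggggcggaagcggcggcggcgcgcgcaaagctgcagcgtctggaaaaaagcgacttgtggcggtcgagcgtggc
POLE2: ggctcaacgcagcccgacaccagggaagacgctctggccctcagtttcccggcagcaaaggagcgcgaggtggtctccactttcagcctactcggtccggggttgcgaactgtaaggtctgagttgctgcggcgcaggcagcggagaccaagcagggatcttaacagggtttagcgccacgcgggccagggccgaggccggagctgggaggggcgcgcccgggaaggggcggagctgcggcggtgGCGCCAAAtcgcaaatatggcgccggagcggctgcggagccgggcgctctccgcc
MCM6 had 4 matches in 2 overlapping pairs, MCM7 had 2 and POLE2 had 1. These 3 promoters were chosen after their letters were seen. POLE2 was not in the list of 40, and a match says only that these letters occur in the window.

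Among the 491 genes whose response passed in GFP-positive cells alone, 186 rose and 305 fell. The same class over all genes tested held 1107 that rose and 1540 that fell. TRIM56, a ubiquitin ligase of the innate response, rose from 2.98, 2.23 and 3.68 to 31.8, 18.3 and 20.5 CPM in GFP-positive cells, while GFP-negative cells had 17.0, 18.6 and 21.5 CPM in control and 23.6, 21.3 and 28.1 CPM in treated libraries. Treated GFP-positive cells thus reached the range of GFP-negative cells, whose response of 0.36 had a 95% interval of -0.12 to 0.84 (difference 2.62 ± 0.26, adjusted p = 8.47e-05). GADD45B, a stress-induced regulator of MAP kinases, rose from 2.42, 1.59 and 1.44 to 18.0, 19.8 and 14.6 CPM in GFP-positive cells, beside 19.8, 14.1 and 12.3 and then 24.7, 25.9 and 15.4 CPM in GFP-negative cells. The GFP-negative libraries overlapped between treatments (difference 2.78 ± 0.22, adjusted p = 1.08e-05). PAX6, a progenitor homeodomain factor, rose from 6.12, 7.88 and 9.79 to 33.5, 26.2 and 31.6 CPM and was at 30.9 to 41.2 CPM in all 6 GFP-negative libraries (difference 1.83 ± 0.20, adjusted p = 0.000165). FOXP2, a forkhead factor, had responses of 2.03 ± 0.30 and 0.34 ± 0.29, and BCL2L11, a BH3-only death gene, had 1.05 ± 0.22 and -0.46 ± 0.22.

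The largest one-sided rises by the naming rule were low or uneven. HSPA6, an inducible HSP70, was at most 0.320 CPM in control and at least 1.17 CPM in treated GFP-positive cells, with 0.558, 0.734 and 4.0 CPM in control GFP-negative cells. Its difference of 4.10 ± 0.65 (adjusted p = 0.00192) was 5.08 without control culture 3, the one with the globin counts. It had an adjusted p of 0.111 without the culture block. IL6R, the interleukin 6 receptor, rose from 0.559, 0.377 and 0.224 to 5.31, 2.89 and 7.31 CPM in GFP-positive cells, and had 2.99, 1.91 and 18.7 CPM in control GFP-negative cells. The third of these values comes from that same library, and without control culture 3 the difference of 3.46 ± 0.74 (adjusted p = 0.013) was 2.10 (adjusted p = 0.00993). Without treated cultures 1 and 3 it had adjusted p-values of 0.0737 and 0.0701. LEF1, a WNT effector whose response also passed in GFP-positive cells alone, rose there from 0.149, 0.087 and 0.064 to 0.750, 0.773 and 1.38 CPM. From so low a control level its fold is uncertain. Control GFP-negative cells had 1.25, 2.11 and 5.28 CPM. The GFP-negative response was a fall of -1.09 (95% interval -2.10 to -0.07) that missed the threshold (adjusted p = 0.0861). The difference for LEF1 of 4.14 ± 0.74 was 3.31 (adjusted p = 0.0124) without control culture 3.

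One-sided falls in GFP-positive cells included some guidance, adhesion and motor neuron genes. UNC5D (chr8:35235475-35796550), a netrin receptor, fell from 24.9, 30.3 and 43.0 to 4.98, 4.70 and 4.29 CPM, beside 3.35, 8.08 and 7.63 CPM in control and 5.22, 6.40 and 4.71 CPM in treated GFP-negative cells. The excess of control GFP-positive cells was gone after treatment, when the fractions overlapped (difference -2.63 ± 0.27, adjusted p = 9.09e-05). Of 22 netrins, slits and their receptors, 3 differences were negative and 1 positive (18.2% called, beside 7.79% over all genes). The positive one was that of UNC5B, named only to complete this count. JAG1, a Notch ligand, fell from 96.8, 110 and 134 to 14.6, 14.3 and 20.2 CPM in GFP-positive cells and had 61.7, 86.0 and 81.2 CPM in control and 37.4, 50.8 and 68.6 CPM in treated GFP-negative cells. The GFP-negative response of JAG1 was also negative, at -0.54 (95% interval -1.01 to -0.08), but missed the threshold (adjusted p = 0.0637). Its order was exchanged between the fractions (difference -2.23 ± 0.19, adjusted p = 1.44e-05). LRRN2, a leucine-rich repeat protein of neurons, had responses of -2.24 ± 0.28 and -0.04 ± 0.27 (difference -2.25 ± 0.30, adjusted p = 0.000804). LOC100126784, a locus with no assigned role here, had -2.31 ± 0.29 and -0.11 ± 0.29 (difference -2.20 ± 0.37, adjusted p = 0.00299).

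CDH6, a type II cadherin of motor pools, fell from 128, 93.8 and 119 to 22.6, 29.7 and 44.1 CPM in GFP-positive cells and had 119, 113 and 126 CPM in control and 76.4, 105 and 85.9 CPM in treated GFP-negative cells. In GFP-negative cells, too, every treated library was below every control library. Control fractions overlapped and treated ones did not (difference -1.43 ± 0.22, adjusted p = 0.0018). MNX1, a homeodomain factor that defines motor neurons, had 13.2, 12.3 and 8.86 CPM in control and 5.16, 5.24 and 3.15 CPM in treated GFP-positive cells, with 3.36 to 5.14 CPM in all GFP-negative libraries. After treatment its fractions overlapped (difference -1.52 ± 0.28, adjusted p = 0.00494). BCL2L1, which encodes the survival protein BCL-XL, had responses of -1.26 ± 0.16 and -0.08 ± 0.15 (difference -1.17 ± 0.17, adjusted p = 0.00112). BCL2L11 and BCL2L1 thus differed between fractions in opposite senses, but the whole list leaned to neither side. Of 22 BCL2 family and death receptor genes, 2 differences were positive, BCL2L11 and TNFRSF10B, and 2 negative, BCL2L1 and BOK. These were 18.2% of the list, beside 7.79% over all genes, and the median difference was -0.00875.

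**Figure D4:**
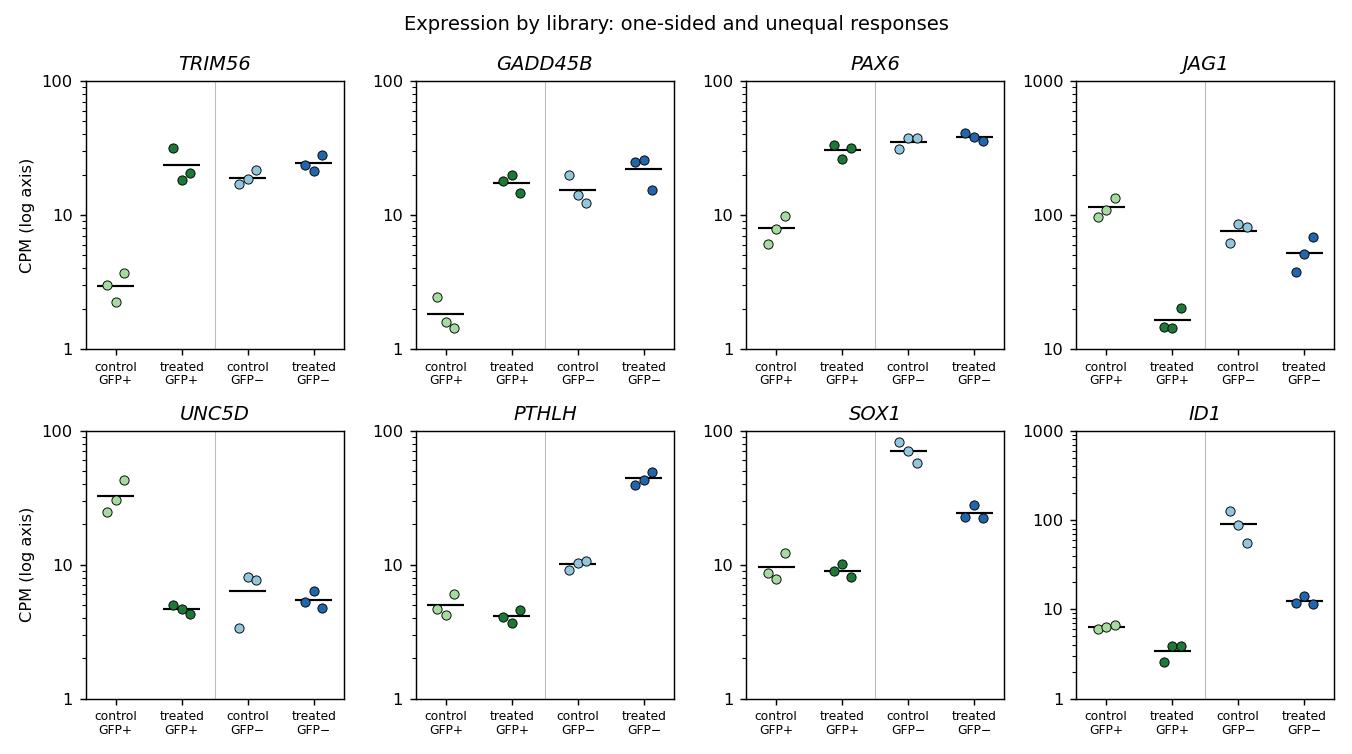
CPM (log axis) of 8 genes in the 12 libraries, drawn as in the plot of opposite responses. TRIM56, GADD45B and PAX6 rose and JAG1 and UNC5D fell in GFP-positive cells, PTHLH rose and SOX1 fell in GFP-negative cells, and ID1 fell in both, more in GFP-negative cells.

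Among the 329 genes that passed in GFP-negative cells alone, 185 rose and 144 fell. The same class over all genes tested held 918 that rose and 733 that fell. PTHLH, which encodes parathyroid hormone-related protein, rose from 9.20, 10.3 and 10.7 to 39.6, 43.2 and 49.6 CPM in GFP-negative cells, and stood at 4.70, 4.20 and 6.05 CPM in control and 4.08, 3.69 and 4.61 CPM in treated GFP-positive cells. GFP-positive libraries overlapped between treatments, with a response of -0.27 (95% interval -0.67 to 0.13), and the difference was -2.39 ± 0.22 (adjusted p = 3.13e-05). LACC1 (-2.35 ± 0.50, adjusted p = 0.0125), a metabolic regulator of macrophages, and the orphan receptor GPR158 (-1.84 ± 0.39, adjusted p = 0.0119) also rose in GFP-negative cells. LACC1 missed the threshold without control culture 2 (-2.33, adjusted p = 0.0576), treated culture 1 (-1.99, adjusted p = 0.11) or treated culture 3 (-2.28, adjusted p = 0.0617), and GPR158 without treated culture 1 (-1.72, adjusted p = 0.0875).

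SOX1, a progenitor HMG-box factor, fell from 82.3, 70.8 and 57.2 to 22.6, 27.8 and 22.4 CPM in GFP-negative cells and had 7.79 to 12.1 CPM in all 6 GFP-positive libraries (difference 1.46 ± 0.25, adjusted p = 0.00376). Its GFP-positive response was -0.08 (95% interval -0.51 to 0.35). SEMA5B, a transmembrane semaphorin, fell from 67.9, 73.1 and 44.6 to 15.5, 24.8 and 14.1 CPM in GFP-negative cells and had 8.19 to 16.5 CPM in GFP-positive libraries (difference 1.47 ± 0.22, adjusted p = 0.00145). Both genes came closer to the GFP-positive level. LOC400499, an uncharacterized locus, had responses of 0.21 ± 0.24 and -2.16 ± 0.24 (difference 2.41 ± 0.30, adjusted p = 0.000502). RPRML (2.33 ± 0.36, adjusted p = 0.00181) and DIO3 (2.28 ± 0.27, adjusted p = 0.000361), the enzyme that inactivates thyroid hormone, fell in GFP-negative cells and missed the threshold without the culture block (adjusted p = 0.0976 and 0.0649). DIO3 also missed it with a block by replicate number (2.35, adjusted p = 0.0788).

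Unequal changes in the same direction included the stress genes with the largest rises. GDF15, a secreted stress hormone, rose from 0.447, 0.666 and 0.480 to 108, 104 and 91.4 CPM in GFP-positive cells and from 8.97, 4.41 and 3.16 to 201, 127 and 231 CPM in GFP-negative cells. Its level was higher in GFP-negative cells under both conditions, and its log2 rise was larger in GFP-positive cells (difference 2.40 ± 0.38, adjusted p = 0.00193). SLC7A11, the cystine transporter, had responses of 5.57 ± 0.24 and 4.0 ± 0.21 (difference 1.54 ± 0.24, adjusted p = 0.00181), and the secreted glycoprotein STC2 had 4.43 ± 0.20 and 3.14 ± 0.19 (difference 1.28 ± 0.21, adjusted p = 0.00262). All 30 tested PERK and ATF4 targets rose in both fractions, with median responses of 2.79 and 2.72. Over all genes 19.9% rose in GFP-positive and 18.9% in GFP-negative cells. Differences were positive in 5 of the 30 targets and negative in 3, namely TRIB3, ALDH1L2 and PPP1R15A. These were 26.7% of the list, beside 7.79% over all genes, and the median difference of the 30 was 0.0101. The positive calls ran from 3 to 11 and the negative ones from 0 to 5 over the alternatives. Of 25 IRE1 and XBP1 targets, 2 were positive and 1 negative (12% called, beside 7.79% over all genes), and of 16 ATF6 targets 0 were called by edgeR (3 at an unadjusted p under 0.05) and 2 by DESeq2.

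Other genes rose more in GFP-positive cells. TMEM144, a putative sugar transporter, was at most 0.128 CPM in control GFP-positive cells, so that its fold is uncertain, and rose to 4.08, 4.15 and 5.99 CPM (difference 5.24 ± 0.72, adjusted p = 0.000866). FOSL2, an AP-1 subunit, rose from 4.36, 4.23 and 5.28 to 84.4, 63.3 and 102 CPM in GFP-positive and from 18.0, 20.9 and 25.2 to 49.9, 60.2 and 59.5 CPM in GFP-negative cells. GFP-positive cells thus passed from the lower to the higher level (difference 2.74 ± 0.22, adjusted p = 1.15e-05). HK2, a hexokinase, did the same, from 6.86, 7.3 and 8.0 to 121, 85.2 and 122 CPM against 20.2, 22.8 and 18.5 to 61.7, 60.1 and 69.6 CPM (difference 2.23 ± 0.20, adjusted p = 2.41e-05). ABCB1, the drug efflux pump, had a difference of 2.04 ± 0.34, the interferon-induced GTPase MX1 one of 2.28 ± 0.32, and the p53 target EDA2R one of 1.61 ± 0.25.

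Some genes rose more in GFP-negative cells. TNC, which encodes tenascin-C, rose from 19.3, 19.6 and 20.4 to 84.7, 80.0 and 64.1 CPM in GFP-positive and from 17.9, 21.1 and 18.1 to 313, 378 and 336 CPM in GFP-negative cells. Levels overlapped in control fractions and were far apart in treated ones (difference -2.23 ± 0.19, adjusted p = 1.15e-05). MMP1, a collagenase at most 0.448 CPM in every control library, rose to 3.36, 3.32 and 5.14 CPM in GFP-positive and 38.3, 25.9 and 65.3 CPM in GFP-negative cells (difference -4.44 ± 0.62, adjusted p = 0.000979). HOXB9 had responses of 3.09 ± 0.33 and 5.45 ± 0.36, a difference of -2.34 ± 0.40 (adjusted p = 0.00305). It was at most 0.864 CPM in every control library, so that its folds are uncertain. THBS2, a matricellular protein, rose more in GFP-positive cells, with a difference of 2.47 ± 0.43 (adjusted p = 0.00412). Its fold there is also uncertain, from at most 0.336 CPM in control GFP-positive cells. Among 29 fibrillar and other mesenchymal matrix genes, 3 differences were positive and 4 negative (24.1% called, beside 7.79% over all genes).

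ID1, a target of BMP signalling that holds back differentiation, fell in both fractions. It went from 127, 87.9 and 54.7 to 11.7, 14.0 and 11.6 CPM in GFP-negative cells and from 6.0, 6.29 and 6.62 to 2.55, 3.87 and 3.92 CPM in GFP-positive cells (difference 1.89 ± 0.30, adjusted p = 0.00227). The gap between the fractions narrowed with treatment. EPHB2, an Eph receptor, fell more in GFP-positive cells, with responses of -1.78 ± 0.20 and -0.63 ± 0.20 (difference -1.13 ± 0.17, adjusted p = 0.0017).

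Other lists of related genes held fewer calls, to be read beside 3.2% positive and 4.59% negative over all genes. Of 20 motor neuron transcription factors, 3 differences were positive and 4 negative, the latter TBX3, TBX2, ISL2 and MNX1. Of 22 neural tube progenitor factors 4 were positive, PAX6, OLIG2, SOX1 and NKX2-2, and 2 were negative. Of 30 semaphorins, plexins and neuropilins 2 were positive and 3 negative. Calls were all negative for 28 sterol synthesis genes (6), 22 ephrins and Eph receptors (2) and 21 HOX genes (3). The medians of these lists were -0.411, -0.366 and -0.287. Of the 28 sterol genes 26 fell in GFP-positive and 20 in GFP-negative cells, beside 23.3% and 18.3% of all genes. Calls were all positive for 15 hedgehog pathway genes (4, HHIP, GLI2, GLI1 and SCUBE1), with a median of 0.28. NKX2-2, SCUBE1, TRIB3, ALDH1L2 and PPP1R15A lie outside the naming rule and are given to complete these counts. They, ISL2, GLI1 and GLI2 were not called in every alternative, and without the culture block the adjusted p was 0.0613 for ISL2, 0.118 for GLI2 and 0.107 for GLI1. GLI1 also missed the threshold without control culture 1 (1.11, adjusted p = 0.0546), control culture 2 (1.10, adjusted p = 0.141), treated culture 1 (1.18, adjusted p = 0.105) or treated culture 3 (1.1, adjusted p = 0.123), and GLI2 without control culture 2 (1.32, adjusted p = 0.0548) or treated culture 1 (1.41, adjusted p = 0.0536). Of 23 NRF2 targets 1 was positive and 5 negative, and of 29 neuronal adhesion molecules 1 was positive and 5 negative.

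These smaller counts depended on the fit. Over the 14 alternatives the negative calls ran from 0 to 11 for the sterol genes, 1 to 7 for the NRF2 targets and 2 to 8 for the adhesion molecules, and the positive calls from 1 to 5 for the hedgehog genes. The sterol count was 0 without the culture block or control culture 2, 1 without treated culture 1 and 2 without control or treated culture 3. For NRF2 targets it was 1, and for HOX genes 1, without control culture 2, treated culture 1 or treated culture 3. The hedgehog count was 1, 1 and 2 without these 3 cultures. Counts without a call by edgeR were those of 45 cytosolic ribosomal protein genes (3 at an unadjusted p under 0.05, 0 by DESeq2), 13 cholinergic genes (5 and 1) and 10 pan-neuronal markers (2 and 1). Of 45 respiratory chain subunits 17 fell and 2 rose in GFP-positive cells, and 1 fell and 4 rose in GFP-negative cells. Their median difference was -0.36, with 17 negative and 0 positive at an unadjusted p under 0.05 in edgeR. DESeq2 called 5, all negative, and edgeR called 1, NDUFA9. It missed the threshold in 8 of the 14 alternatives, among them those without control culture 2 (-0.59, adjusted p = 0.18), control culture 3 (-0.77, adjusted p = 0.0553), treated culture 1 (-0.53, adjusted p = 0.223) and treated culture 3 (-0.67, adjusted p = 0.13). In the alternatives up to 3 ribosomal protein genes, 1 cholinergic gene and 12 respiratory chain subunits were called, all negative.

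**Figure D5:**
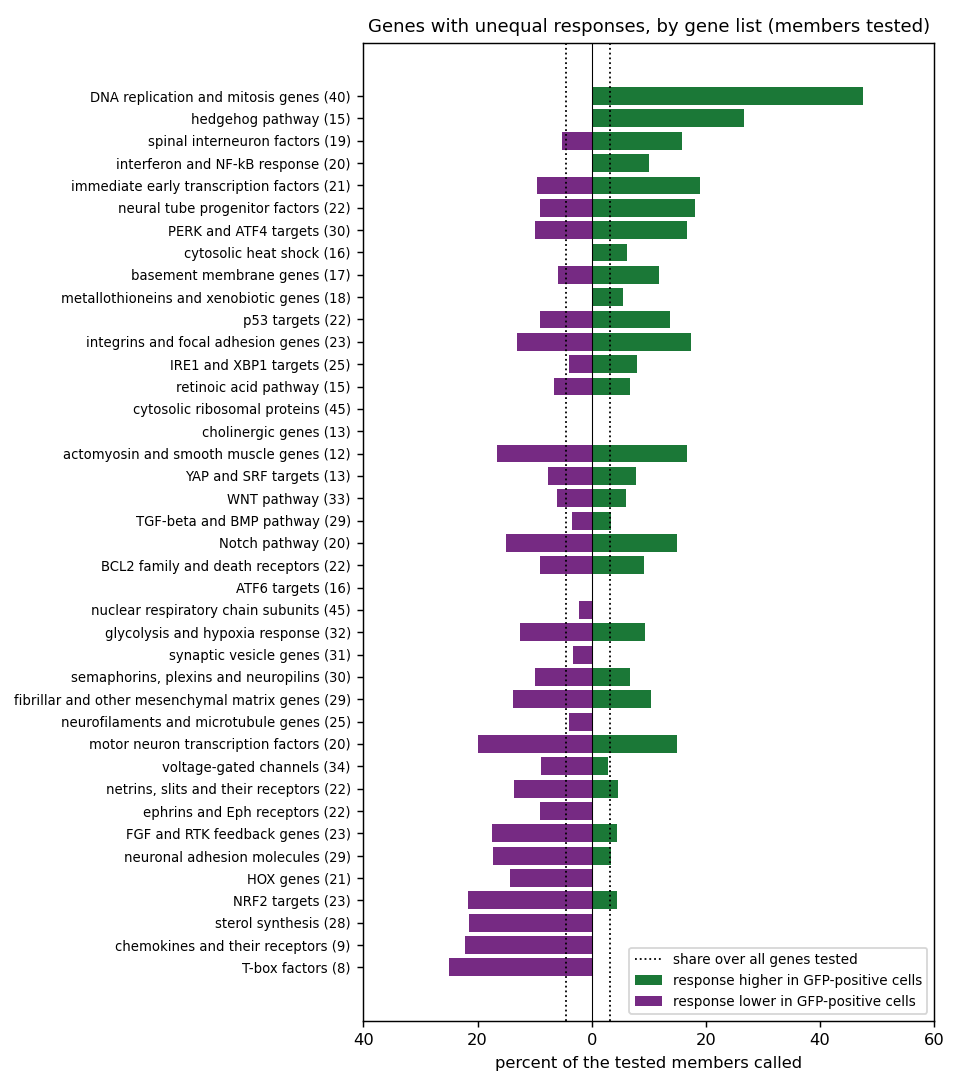
Percent of the tested members of 40 gene lists whose response was higher (right, green) or lower (left, purple) in GFP-positive than in GFP-negative cells at an adjusted p under 0.05, with the number tested in brackets. Dotted lines mark 3.2% and 4.59%, the shares over all genes tested. DNA replication and mitosis genes have the longest bar, with 19 of 40 on the right.

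Taking the mean difference between fractions in the 3 control and the 3 treated cultures, the side with the higher level was exchanged in 559 of the 1264 called genes (44.2%), against 3343 of all 16226 (20.6%). The fractions came closer on the same side in 446 (35.3%, against 40.8%) and moved further apart in 259 (20.5%, against 38.6%). The median absolute log2 difference between fractions went from 0.872 in control to 0.682 in treated cultures among the called genes and from 0.572 to 0.575 over all genes. Among the 51 genes with opposite responses the side was exchanged in 29. The control and treated levels are those that define the tested difference, so that these counts describe the called genes and are no further test.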

How the data were processed

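RNA-seq of 12 libraries was analysed. Per the labels and the study's methods, single-end stranded mRNA libraries were mapped to hg38 with HISAT2 and counted with featureCounts, per the submitters' processing notes; versions and the counting settings are not given in the sources used here. The deposited values are raw counts per gene symbol, which the authors did not normalize. Per-sample columns left unused numbered 0.

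Counts were analysed with edgeR 4.0.16 in R 4.3.3. Low genes were removed with filterByExpr (minimum count 10, minimum total 15), and TMM set the library sizes. The difference of responses was tested with the quasi-likelihood F-test and 1 coefficient per culture, and responses within a fraction with a fit of the 4 groups. p-values were adjusted over all 16226 genes by Benjamini-Hochberg, at 0.05. GFP-positive and GFP-negative libraries whose labels share treatment and number were taken as 1 culture. They deviated together from their groups (r over 13368 genes of 0.447, 0.159 and 0.47 for control cultures 1 to 3, and of 0.2, 0.281 and 0.544 for treated ones). Treated GFP-positive library 1 correlated more with GFP-negative library 2 (0.278) than with its own number. Control and treated libraries of the same fraction and number had r from -0.082 to 0.25. This range overlaps the values within cultures, so r alone does not decide between a block by culture and one by number. With the block by number 487 genes were called. Replicates are separate thaws per the methods, so p-values cover the spread between cultures of 1 line.

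Named genes were the 5 opposite genes of each orientation, 3 one-sided genes of each of 4 kinds and 1 unequal gene of each kind with the largest difference, at a mean of at least 1 CPM per fraction and with no overlap of the culture differences; the 3 smallest p-values; TBX2, COL1A2, NRP2 and ISL1; and up to 3 called genes per list. Not all of them are described, and 1 is not reported here. Members, lists and rules were chosen with earlier results of these data known. Groups with no library above 3 counts were treated as at the floor. Positions come from GENCODE 44 on hg38, which is not the authors' annotation (25763 of 28278 symbols matched), and promoters from RefSeq. Alternatives were DESeq2 1.42.0, RLE scaling, library size alone, other filters, no replicate block, a block by replicate number, removal of GC trends (loess span 0.5) and each culture left out. For gene lists, RLE scaling and the block by replicate number were added after seeing the data. matplotlib 3.10.9 (Python 3.11.15) drew the figures.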

Additional observations from a re-analysis of the deposited data

Results flagged for a closer look

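A difference between the sort fractions in the response to cis-chlordane, tested directly, was found in 1264 genes, 51 of them with opposite responses. Each difference below is GFP-positive minus GFP-negative response on the log2 scale. Among named genes with opposite responses it was negative for ABR (-5.01), FLOT1 (-4.96), COL13A1 (-3.89), AMIGO2 (-3.57), MCTP1 (-3.08), NRP2 (-2.82), COL1A2 (-2.75), ALCAM (-2.45), NRP1 (-2.31) and ITGA9 (-1.69). It was positive for PLCE1 (3.15), CCNE2 (2.77), TMEM132C (2.67), CCDC81 (2.40), ADAMTS16 (1.99), POLE2 (1.96) and OLIG2 (1.58). Groups of 3 libraries are too small for a test of single outlying libraries.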

How the results depend on the processing

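Calls depended most on the culture block and on single cultures. Without the replicate block 355 genes were called (304 with at least a 2-fold difference), with 128 one-sided in GFP-positive cells, 83 one-sided in GFP-negative cells and 97 unequal in the same direction. With a block by replicate number these were 487, 365, 165, 100 and 156. With no low-count filter 2012 genes were called, 524 of them one-sided in GFP-negative cells. With each culture left out in turn, calls ran from 400 to 1518, those with at least a 2-fold difference from 352 to 779, opposite responses from 19 to 46, one-sided ones from 178 to 591 in GFP-positive and 86 to 426 in GFP-negative cells, and unequal ones from 87 to 322. Opposite responses numbered 19 without control culture 2 or treated culture 1 and 31 without treated culture 3.

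With library size alone the median over all genes moved from -0.0689 to 0.189, and list medians moved with it: 0.969 for DNA replication and mitosis, 0.268 for PERK and ATF4 targets, -0.153 for sterol synthesis, 0.0259 for semaphorins, 0.537 for hedgehog, -0.027 for NRF2, 0.138 for motor neuron factors, -0.0143 for matrix genes, -0.109 for ephrins, 0.309 for progenitor factors, 0.0496 for Notch and -0.03 for HOX genes. After removal of GC trends they were -0.07 for semaphorins, 0.476 for hedgehog, -0.172 for ephrins and 0.308 for progenitor factors. ISL1 reversed with library size alone (0.0156, adjusted p = 0.97). The cause of these shifts was not tested. Another 136 values for counts and list medians moved by less than 1.5 times or the replicate spread, and for named genes 1319 differences kept direction and call and 336 kept the direction and lost the call. Depth limits genes under about 1 CPM, and counting error is the only error that counts near 0 show.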
